A study of Mus musculus with 65 samples.

Results

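Accessibility of newly copied chromatin was compared between the moment of replication and 2 h later in mouse embryonic stem cells, by repli-ATAC-seq with an added standard of Drosophila cells. These 4 libraries, of 65 samples in the series, were chosen by their labels and are 2 of nascent chromatin and 2 of chromatin taken after a 2 h chase. At 2 h, promoters with a peak, and enhancers, stood farther above peak-free TSS regions than in nascent chromatin in both libraries. The cells were E14TG2a, a male embryonic stem cell line of strain 129/Ola, grown on gelatin with serum and LIF and used between passages 5 and 28. All of them received 20 uM EdU, a thymidine analogue that enters new DNA, for 10 min. Nascent samples were collected at once, and 2 h samples were kept for 2 h with 10 uM thymidine. To every sample 100 EdU-labelled Drosophila S2 cells were added, and no drug was given. In the same series 6 EdU libraries (3 nascent, 3 at 2 h) came from cells held in DMSO for 2 h before the pulse, and their values are set beside these as a separate experiment.

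During replication the fork strips nucleosomes and bound factors from the parental DNA, and both are put back on the daughter strands behind it. Tn5 transposase cuts where nucleosomes are absent, so cutting on EdU-labelled DNA reads how far regulatory DNA has been cleared again. Active promoters and enhancers are held open by transcription factors, remodelling enzymes and RNA polymerase II, and most promoters of broadly expressed and developmental genes lie in CpG islands, stretches rich in the dinucleotide CpG that most of the genome has lost.

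The measured features were 5 kb regions centred on transcription start sites (TSSs) and on enhancers. Values are log2(deposited value + 1), written below as log2 signal, and a difference is always 2 h minus nascent on that scale. The 5 promoters below show the range of sequences behind the results. RefSeq (GRCm38.p6) gave 250 bases before and 50 after the start of each gene, written 5′ to 3′ on the strand of the gene with every CpG in capitals. H2ac8, Zfp42 and Hmgcs1 are promoters whose regions rose at 2 h, and Bpifa3 and Hnf4a are promoters whose regions fell.
H2ac8 (chr13:23571171-23571470, minus strand): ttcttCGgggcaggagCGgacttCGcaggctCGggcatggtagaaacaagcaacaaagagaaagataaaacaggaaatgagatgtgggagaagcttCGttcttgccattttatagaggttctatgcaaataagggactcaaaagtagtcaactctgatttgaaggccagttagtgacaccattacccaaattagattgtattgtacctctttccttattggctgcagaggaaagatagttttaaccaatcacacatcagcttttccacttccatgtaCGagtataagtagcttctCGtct
Zfp42 (chr8:43306960-43307259, minus strand): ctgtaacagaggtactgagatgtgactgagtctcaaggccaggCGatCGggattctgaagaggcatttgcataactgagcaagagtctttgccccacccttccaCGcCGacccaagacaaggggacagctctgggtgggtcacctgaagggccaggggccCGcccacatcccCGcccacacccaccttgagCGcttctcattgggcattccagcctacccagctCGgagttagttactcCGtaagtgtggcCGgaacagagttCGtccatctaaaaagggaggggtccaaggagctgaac
Hmgcs1 (chr13:119690101-119690400, plus strand): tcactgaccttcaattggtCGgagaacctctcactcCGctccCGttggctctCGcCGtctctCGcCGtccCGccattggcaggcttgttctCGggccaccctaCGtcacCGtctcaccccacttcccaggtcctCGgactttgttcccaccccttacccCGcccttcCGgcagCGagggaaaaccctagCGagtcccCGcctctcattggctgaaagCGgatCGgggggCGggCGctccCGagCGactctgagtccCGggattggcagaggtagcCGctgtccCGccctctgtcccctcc
Bpifa3 (chr2:154130086-154130385, plus strand): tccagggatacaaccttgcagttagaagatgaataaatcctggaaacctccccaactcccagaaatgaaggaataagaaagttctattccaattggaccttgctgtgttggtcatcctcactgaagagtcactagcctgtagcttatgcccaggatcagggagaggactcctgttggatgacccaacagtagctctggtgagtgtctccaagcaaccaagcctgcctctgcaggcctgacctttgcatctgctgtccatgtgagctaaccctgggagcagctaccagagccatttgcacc
Hnf4a (chr2:163506607-163506906, plus strand): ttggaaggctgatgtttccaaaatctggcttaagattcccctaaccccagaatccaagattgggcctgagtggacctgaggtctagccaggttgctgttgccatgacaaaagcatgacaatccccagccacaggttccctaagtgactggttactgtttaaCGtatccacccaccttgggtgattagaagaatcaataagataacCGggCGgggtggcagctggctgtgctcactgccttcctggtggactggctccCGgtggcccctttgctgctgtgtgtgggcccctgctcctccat
Hmgcs1 holds 26 CpGs, an observed-to-expected ratio of 0.85, whereas Zfp42 holds 11 (0.44), H2ac8 7 (0.53), Hnf4a 4 (0.18) and Bpifa3 none.

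The libraries were shallow and unequal. Non-overlapping TSS regions held 533161 reads in nascent replicate 1, 463741 in nascent replicate 2, 1468143 in 2 h replicate 1 and 1282233 in 2 h replicate 2. The median TSS region had 17 and 15 reads at the nascent stage against 36 and 32 after the chase, and the median enhancer had 15 and 13 against 50 and 43.5. The nascent libraries differed in overall level, since a single read stood for 1.09 in replicate 1 and 2.28 in replicate 2, against 1.24 and 1.32 at 2 h. Nascent replicate 2 lay above replicate 1 by a median of 0.82 over TSS regions, while the 2 h replicates differed by 0.12 in size. Regions agreed across replicates with Pearson's r of 0.88 in nascent and 0.96 in 2 h chromatin (30618 TSS regions of the same libraries, a description with no test). Since no label says that the replicates were grown separately, p-values reflect only how much these samples vary, which may be technical variation.

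The first question was how much signal came back in 2 h, and where. Mean TSS signal was 3.96 and 4.71 in nascent chromatin against 5.02 and 4.88 at 2 h, and mean enhancer signal was 4.11 and 4.90 against 5.90 and 5.81. Both 2 h libraries lay above both nascent libraries in each case. The differences of 0.62 (0.24 without nascent replicate 1 and 1.00 without nascent replicate 2) and 1.35 had a two-sided exact permutation p of 0.33 each, the smallest that 2 against 2 libraries allow. Region by region, limma called 9223 of 30618 TSS regions higher at 2 h (30.1%) and 414 lower (1.35%), with a median difference of 0.79. Of 8788 enhancers 5296 were higher (60.3%) and 31 lower (0.353%), with a median of 1.42. These counts rest on the filter, the model and the level of each library. With no filter limma called 35 TSS regions and 5296 enhancers higher, and with the replicate number as a block 670 and 3695. Rescaled to an equal number of reads in TSS regions (below, depth-scaled), 4763 TSS regions rose and 8524 fell, with 2883 and 1064 for enhancers. Centred on the median TSS region, 8228 rose and 6151 fell, with 4018 and 669 for enhancers. With either 2 h library left out, so that the remaining one is assumed to vary like the nascent pair, limma called 2 TSS regions and no enhancer higher at adjusted p under 0.05. At an unadjusted p under 0.05 in either direction these fits held 1529 and 1671 TSS regions and 1707 and 1909 enhancers. Without nascent replicate 1 it called 12691 TSS regions higher and 2803 lower, and without nascent replicate 2 it called 17719 higher and 325 lower.

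Differences taken inside a library do not depend on how it was scaled, apart from the pseudocount. TSS regions that overlap a steady-state peak had a mean signal 4.46 and 4.38 times that of peak-free TSS regions in the nascent libraries, and 14.5 and 15.5 times at 2 h. For enhancers the ratio went from 2.97 and 2.88 to 11.5 and 12.51. At TSS regions with a peak of S5P, the initiating form of RNA polymerase II that carries a phosphate on serine 5 of its tail, the ratio went from 5.82 and 5.70 to 21.2 and 22.8. Replicates of a group lay far closer to each other than the groups did: the mean ratio at TSS peaks was 4.42 ± 0.06 (SD, n = 2) in nascent and 15.0 ± 0.74 (SD, n = 2) in 2 h chromatin, a rise of 3.39-fold. The rise was 4.10-fold at enhancers and 3.82-fold at S5P promoters, with an exact permutation p of 0.33 for each, again the smallest possible. Enhancers lay above TSS regions by 0.16 and 0.19 in nascent and by 0.88 and 0.93 in 2 h libraries, on the log2 scale. The sets differ in make-up, since 11440 of 31995 TSS regions but 712 of 8794 enhancers held no peak of any list. How much of the lead this makes was not tested. Against the nearest coding TSS, 5 to 50 kb away, the mean was -0.43 and -0.48 in nascent and -0.43 and -0.41 in 2 h libraries. Among TSS regions with a steady-state peak, those with S5P exceeded those without by 0.69 and 0.70 in nascent and by 1.09 in both 2 h libraries. With any 1 library left out, the 2 h minus nascent change of the enhancer lead over TSS regions stayed between 0.71 and 0.76. The same change lay between 1.37 and 1.55 for peaks over peak-free regions and between 0.38 and 0.40 for S5P, on the log2 scale.

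**Figure D1:**
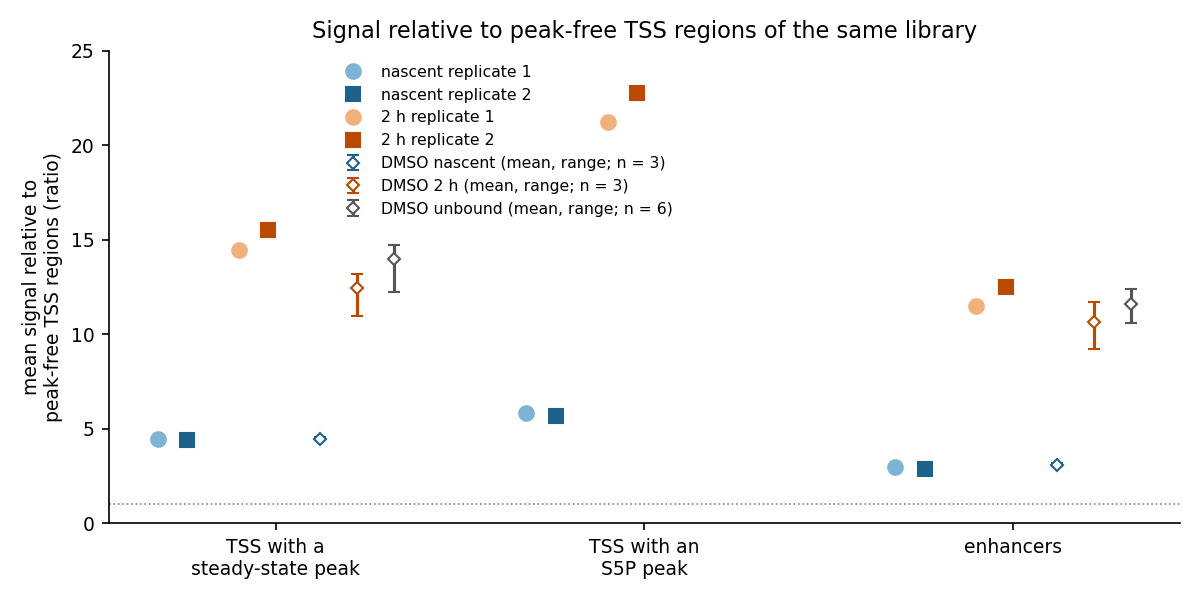
Mean signal of TSS regions with a steady-state peak, TSS regions with an S5P peak and enhancers, divided by that of peak-free TSS regions of the same library (y axis, a ratio), for the 4 spike-in libraries (filled) and, where computed, the DMSO experiment (open diamonds, mean with range). Nascent libraries sit between 2.88 and 5.82 and 2 h libraries between 11.5 and 22.8.

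The DMSO libraries, scaled separately, gave the following ratios. At TSS regions with a steady-state peak they were 4.47 ± 0.09 (SD, n = 3) in nascent and 12.4 ± 1.28 (SD, n = 3) in 2 h chromatin, and at enhancers 3.10 ± 0.09 and 10.7 ± 1.31 (SD, n = 3 each). The unbound chromatin of the same DMSO cells, which is mostly DNA outside the label, stood at 14.0 ± 0.95 for TSS peaks and 11.6 ± 0.58 for enhancers (SD, n = 6 each). Of the 2 h spike-in libraries 1 (14.5) lay inside and 1 (15.5) above the unbound range of 12.2 to 14.7, and the tables were not tested against each other. In that experiment limma called 9683 TSS regions (32%) and 4976 enhancers (56.6%) higher, and 1288 (4.26%) and 151 (1.72%) lower. Of the TSS regions called higher in the spike-in libraries 80.7% were also higher in DMSO, which is 76.8% of the DMSO calls, and for enhancers the shares were 83.2% and 88.5%. The log2 differences of the 2 experiments had Pearson's r of 0.79 over 30174 TSS regions and 0.80 over 8788 enhancers, given as a description across regions that share sequence and accessibility.

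Regions were then grouped by when a peak was first seen in the time series of the same study, whose peak lists the authors made from other samples. Each region was placed by the earliest list (nascent, 30 min, 1 h, 2 h or steady state) with a peak in its central 1 kb. TSS regions with a peak already in the nascent list had medians of 5.25 and 6.07 in nascent and 7.04 and 6.92 at 2 h, and 6084 of 10822 were called higher (56.2%). The shares were 53.5% for the 30 min class, 39.7% for 1 h, 31.7% for 2 h, 13.7% for steady state and 3.81% where no list had a peak. Median differences had the same order, at 1.36, 1.34, 1.13, 1.04, 0.51 and -0.21. Enhancers showed the same grading from higher values: 1.81, 1.71, 1.51, 1.25, 0.68 and 0.34, with 83.1% of the nascent and 21.7% of the unlisted class called higher. Among TSS regions, classes of later lists also hold equal or lower medians in every library. Among enhancers this held in the 2 h libraries but not in the nascent ones. There the medians were 3.44 and 4.26 for the 2 h class and 3.82 and 4.57 for steady state. Counts called depend on read numbers, whose part in these shares was not tested.

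**Figure D2:**
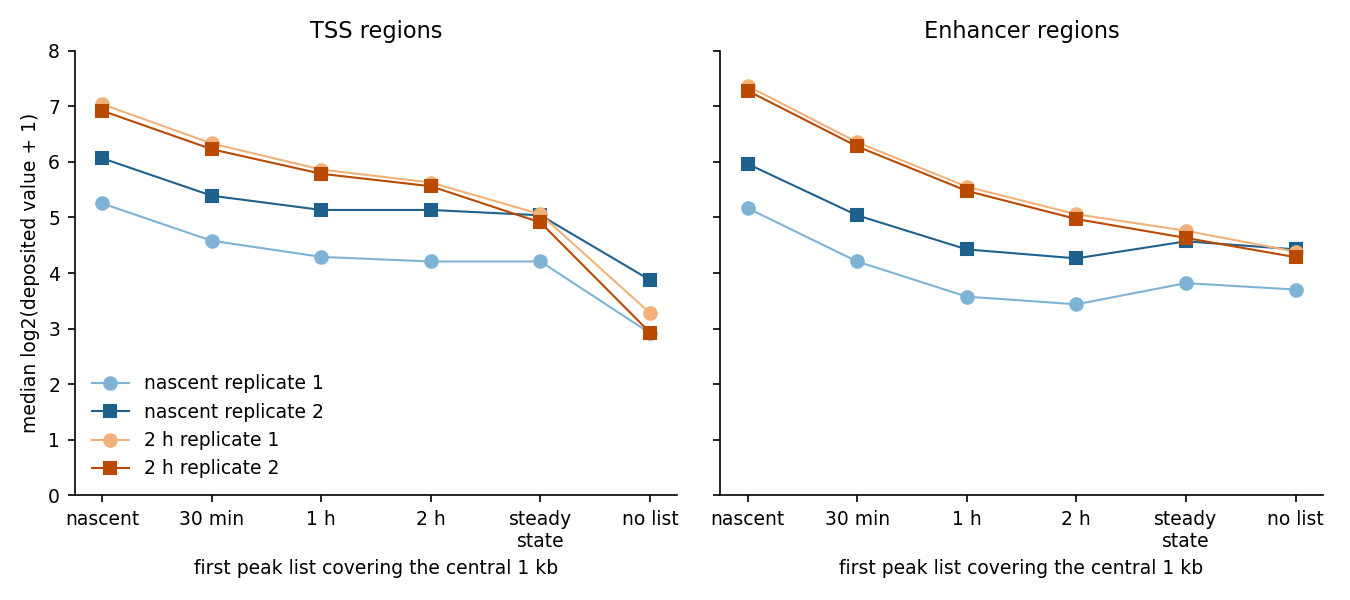
Median log2(deposited value + 1) of TSS regions (left) and enhancers (right) in each of the 4 libraries, by the first peak list with a peak in the central 1 kb of the region. The 2 h libraries (orange) lie above the nascent ones (blue) for regions with an early peak, with medians near 7 against 5.25 and 6.07 for TSS regions of the nascent list, and the groups overlap where no list has a peak.

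Differences were also graded by accessibility in bulk chromatin. Regions were binned by their mean signal in the unbound DMSO libraries, on the log2(summed RPM + 1) scale. TSS regions between 0 and 1 on that scale had a median difference of -0.31 and 0.64% were called higher. Those between 3 and 4 had 1.23 and 47.5%, and those between 5 and 6 had 1.99 and 91.6%. Enhancers went from 0.10 and 5.76% in the lowest bin to 2.08 and 98.9% between 5 and 6. Between 4 and 5, the medians were 1.91 for enhancers and 1.60 for TSS regions.

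Enhancers were graded by distance from genes. The median difference was 1.47 for 971 enhancers within 5 kb of a coding TSS, 1.28 for 3696 between 5 and 50 kb and 1.56 for 4121 beyond 50 kb. In 3698 pairs of an enhancer and the nearest coding TSS, 5 to 50 kb away, the enhancer lay below its promoter by 0.43 and 0.48 in nascent and by 0.43 and 0.41 in 2 h chromatin. The groups overlap (exact permutation p = 0.67), and the enhancer had gained more than its promoter in 50.9% of pairs. By chromosome, medians ranged from 0.59 (chromosome 14) to 1.02 (chromosome 18) for TSS regions. Enhancers ranged from 1.26 to 1.56 on the autosomes, and the 245 tested enhancers of the X chromosome had 1.97.

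Promoter sequence went along with the change. A RefSeq promoter could be paired with 15523 of 19068 coding genes outside chromosome 18 (81.4%). Where CpG observed to expected was under 0.2, as in Bpifa3 and Hnf4a above, the median signal was 2.92 and 3.63 in nascent and 3.08 and 2.93 at 2 h, and 5.97% of 3014 genes were called higher, against 33.2% of all 24930 genes tested. Between 0.4 and 0.6, the class of Zfp42 and H2ac8, 46.1% of 1900 were higher. Above 0.8, the class of Hmgcs1, medians were 5.08 and 5.91 in nascent and 6.90 and 6.77 at 2 h, and 56% of 4693 were higher and none lower. Within 1 class of peak timing the CpG classes differed less: among promoters of the nascent list the median difference was 1.40 for ratios over 0.6 and 1.29 below, and among promoters in no list it was 0.35 (104 genes) and -0.22 (3964 genes).

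**Figure D3:**
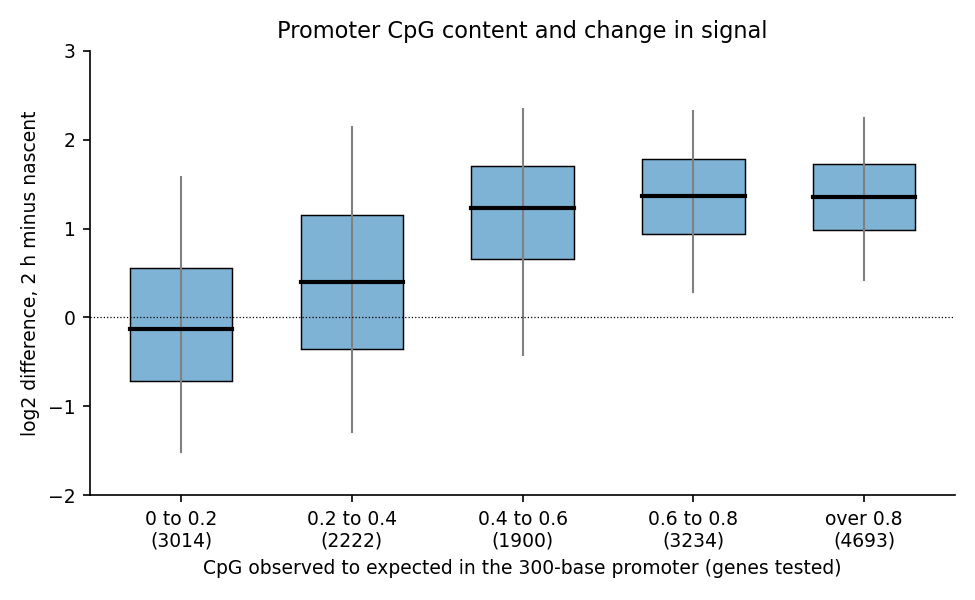
Log2 difference between 2 h and nascent libraries for coding genes (y axis) in classes of promoter CpG observed to expected (x axis, genes tested in brackets). Boxes span the quartiles, bars the median and lines the 5th to 95th percentiles over genes, and medians go from -0.13 in the CpG-poorest class to 1.36 in the CpG-richest.

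Short motifs, searched as exact letters on both strands of the 300-base windows, differed in the same way. GGGCGG, the GC box bound by Sp factors and itself CpG-containing, was in 67.5% of 5889 promoters called higher and in 7.44% of 121 called lower, against 48.7% of the 15523 promoters paired with a gene, from which the calls come, and 35.7% of all 32851 RefSeq promoters in the table. CCAAT, the NF-Y box, was in 44.8% and 29.8% (38.9% of those paired, 37.4% of all), and the E-box CACGTG in 9.56% and 4.13% (8.24% and 7.15%). TATAAA went the other way, in 6.98% of promoters called higher and 24% of those called lower (13.1% of those paired, 13.6% of all). The octamer ATTTGCAT, which Pou5f1 and other POU factors bind, was in 1.75% and 2.48% (1.64% and 1.74%), and it is present in the printed promoters of H2ac8 and Zfp42. A match is a description of these letters and not a bound site.

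Genes were then read as 1 TSS region each, the one with the highest mean. Among 24930 genes tested 8282 were higher (33.2%) and 283 lower (1.14%), with a median difference of 0.91. These shares, over genes with and without a peak, are the background for the deposited counts of each list below. Among TSS regions of the nascent list 56.2% were higher, which is the nearer comparison for lists with mostly such promoters. Both 2 h libraries lay above both nascent libraries in 59.9% of genes and below them in 10.1%, against 55.6% and 11.7% of TSS regions and 77.8% and 3.12% of enhancers. Of 39 gene lists, 35 had a median above 0, of which 1 turned below 0 when libraries were centred on the median TSS region and 4 when they were depth-scaled. Centring moves every difference down by about 0.8 (the median of all genes becomes 0.10), and depth scaling moves the median of all genes to -0.20. Depth-scaled, 4298 of the 24930 genes were higher (17.2%) and 6199 lower (24.9%), the background for the depth-scaled counts of each list below. Of 282 regions named by rule that were called, 279 were still called with a pseudocount of 8, 272 after centring, 280 without nascent replicate 1 and 271 without nascent replicate 2. Without either 2 h replicate every gene call given below, except that of H2ac24, is lost. With the replicate number as a block, 75 of the 282 were still called. In these settings 0 of the 282 reversed, which counts only values called with the opposite sign.

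**Figure D4:**
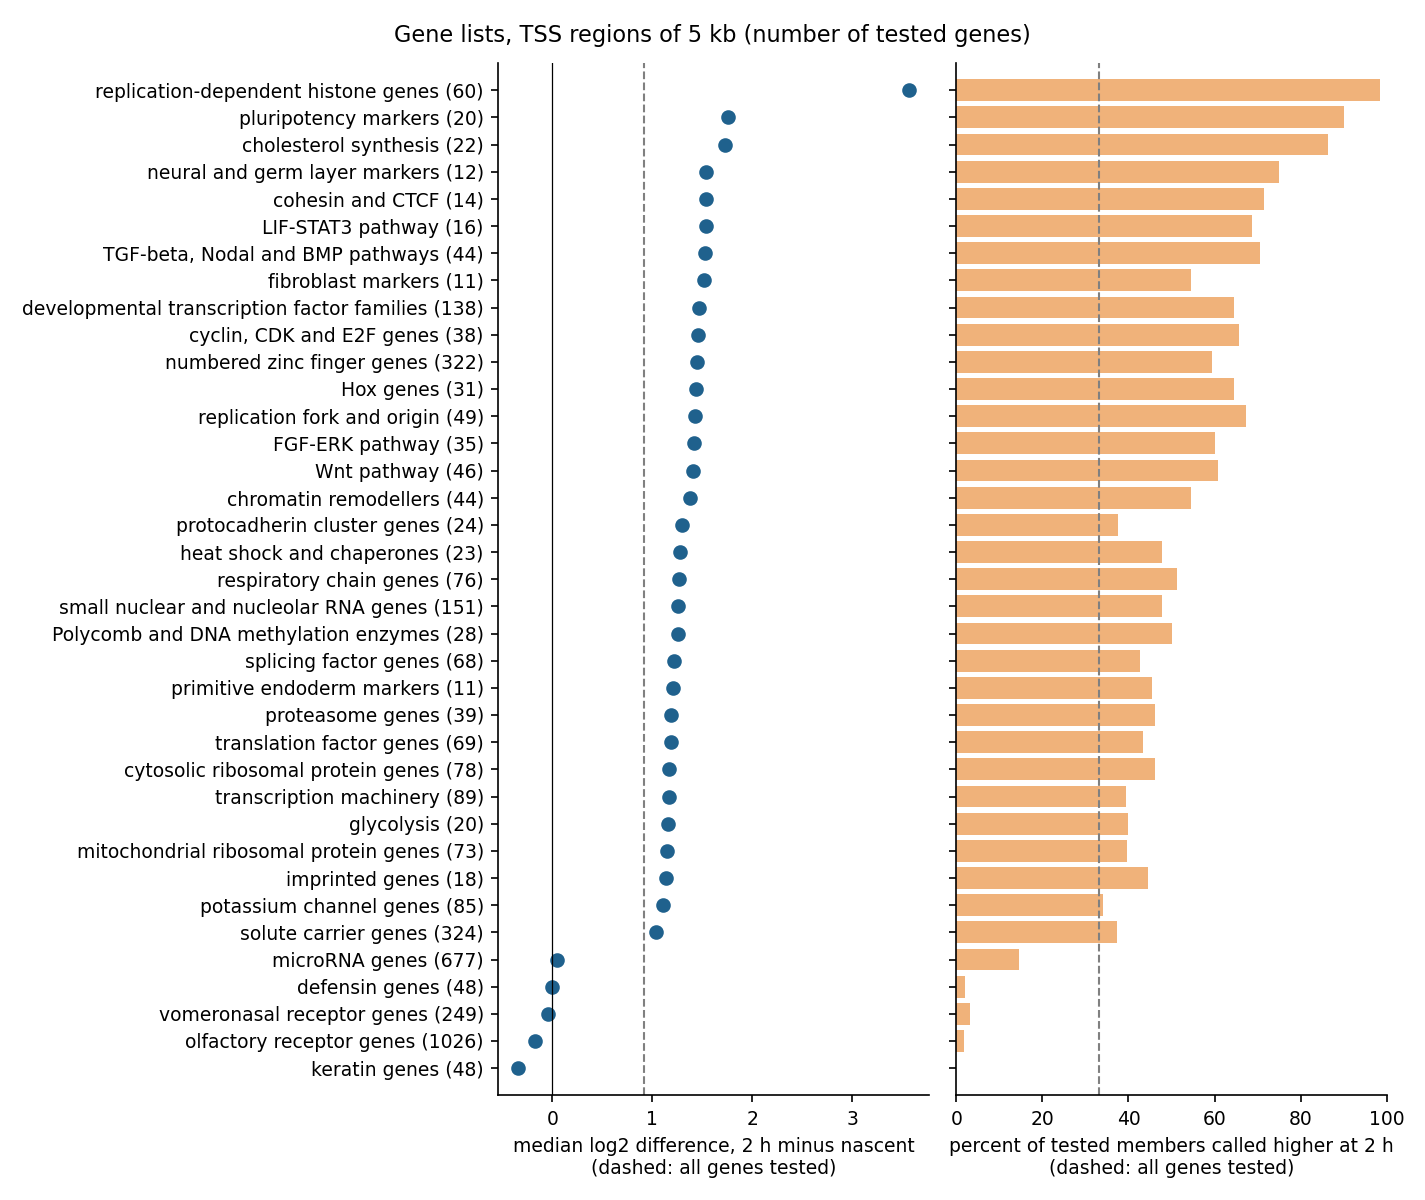
Median log2 difference (left) and percent of members called higher at 2 h by limma (right) for the gene lists with at least 10 tested genes, numbers of genes in brackets. Dashed lines mark all genes tested, at 0.91 and 33.2%, histone genes lie farthest right and the 5 lists at the bottom lie near or below 0.

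Promoters of pluripotency genes, the markers of these cells, were open. Of 20 marker genes 18 rose, against 33.2% of all genes, and none fell, with a median of 1.75 (12 rose and 1 fell when depth-scaled). Medians over the markers were 5.83 and 6.65 in nascent and 7.91 and 7.94 in 2 h libraries. At Tdgf1, the Nodal co-receptor Cripto, signal was 6.19 and 6.95 in nascent and 9.04 and 8.99 at 2 h, a rise of 2.44 (SE 0.59, adjusted p = 0.00080). At Dppa5a, an RNA-binding protein of early embryos, it went from 5.85 and 6.90 to 8.47 and 8.38, and at Lin28a, which blocks let-7 maturation, from 5.65 and 6.29 to 7.90 and 8.02. The 2 h values exceed both nascent values in all 3.

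Other markers rose as well. Zfp42 (Rex1), whose promoter is printed above, went from 5.21 and 6.41 to 7.73 and 7.92. Tfcp2l1, which acts below LIF, went from 5.21 and 6.49 to 7.40 and 7.29, and Tbx3 from 5.80 and 6.16 to 7.92 and 7.95. Nr0b1 (Dax1), at 4.65 and 5.39 in nascent, was the marker with the next lowest start after Esrrb, and reached 6.75 and 6.97. The other 2 markers did not pass. Klf4 had 52 and 58 reads in nascent and 142 and 136 at 2 h (log2 difference 1.03, adjusted p = 0.13), and Esrrb had 3.93 and 4.82 against 4.10 and 3.69 (difference -0.48, adjusted p = 0.59). The Esrrb region held no peak of any list in its central 1 kb and no S5P. Each gene is read here at 1 annotated start, and whether that is the start in use in these cells was not tested. The Esrrb values therefore do not show that the gene lacks an open promoter.

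Enhancers whose nearest coding gene is a pluripotency marker, within 50 kb, numbered 23 at 17 genes, of which 17 rose (60.3% of all enhancers did) and none fell, with a median of 1.51. Of these, 11 lie under 5 kb from the marker's start, so that their regions overlap its TSS region and share reads with it, and they hold 10 of the rises. The 12 farther away rose in 7 cases (58.3%), a share near that of all enhancers. The enhancer 13.9 kb from Zfp42 (chr8:43318392-43323391) had 4.51 and 5.91 in nascent and 8.24 and 8.07 at 2 h, the largest rise among them at 2.95 (SE 0.51). That next to Pou5f1, 2.16 kb from the start, had the highest level, from 6.71 and 7.69 to 9.21 and 9.04. The enhancer 18.6 kb from Sox2 rose from 5.62 and 6.52 to 7.59 and 7.41. Other enhancers of the same genes did not pass: that 8.51 kb from Nanog had 4.37 and 5.80 against 5.16 and 5.20, and one 29.9 kb from Tbx3 had 4.21 and 5.14 against 4.89 and 4.55. In both the 2 h values lie between the nascent ones, and another enhancer 13.1 kb from Tbx3 rose by 1.40. The nearest gene is a matter of distance and does not show which gene an enhancer serves.

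**Figure D5:**
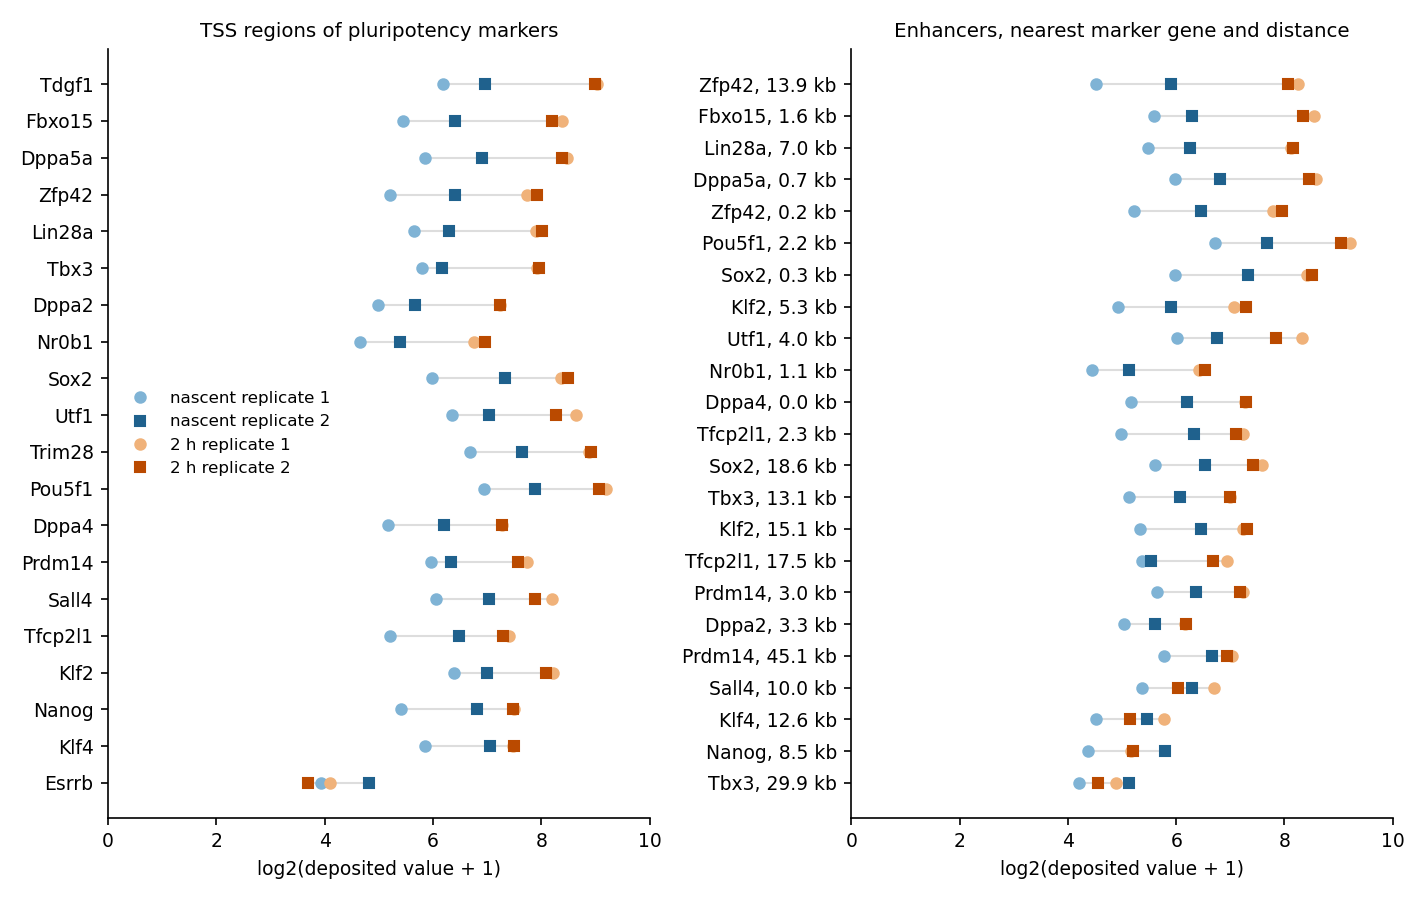
Log2(deposited value + 1) in each library for the TSS regions of 20 pluripotency markers (left) and for the 23 enhancers nearest to a marker (right, with distance), ordered by the difference. Orange 2 h points lie right of both blue nascent points at every marker except Esrrb, and the groups overlap at 4 enhancers at the bottom.

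LIF acts through the Lifr and gp130 receptor, Jak kinases and Stat3, which keeps mouse embryonic stem cells undifferentiated in serum. Of 16 tested genes of the pathway 11 rose and none fell, with a median of 1.53 (5 rose when depth-scaled). All 16 had a nascent peak, a class in which 56.2% of TSS regions were called higher. Lifr had 4.88 and 5.86 in nascent and 6.31 and 6.59 at 2 h (difference 1.08, adjusted p = 0.095). Jak1 went from 4.58 and 5.54 to 6.74 and 6.66 and Jak2 from 4.98 and 5.54 to 6.72 and 6.98, and both passed. Stat3 itself went from 5.03 and 5.67 to 7.31 and 7.40, a rise of 2.00 (SE 0.52, adjusted p = 0.0019). Its feedback inhibitors Socs1 and Socs3 rose by 1.89 and 1.41, and the target Klf5 by 1.90. The phosphatase genes Ptpn1 and Ptpn11, with differences of 0.98 each, did not pass.

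FGF4 signals through Ras and ERK and pushes the same cells towards differentiation. Of 35 genes 21 rose, with a median of 1.41 (12 rose and 4 fell when depth-scaled). Of the 35, 32 had a nascent peak, a class with 56.2% of TSS regions called higher and a median of 1.36. Of the inhibitors, most of them feedback genes, 8 of 9 rose, and of the transducers 6 of 15. Spred1 had 5.68 and 6.49 in nascent and 8.63 and 8.65 at 2 h, a rise of 2.56 (SE 0.56), Dusp6, an ERK phosphatase, went from 6.01 and 7.15 to 8.82 and 8.87, and Spry2 from 6.43 and 7.48 to 9.01 and 8.96. Mapk3, which encodes ERK1, had 5.71 and 6.11 against 6.40 and 6.72, with 2 h values above both nascent values, and did not pass. Fgf5, a ligand of the primed state that first has a peak in the 2 h list, went from 4.71 and 5.47 to 7.67 and 7.45 and rose by 2.47. Fgf4, the ligand made by these cells, had 5.74 and 6.63 against 7.22 and 7.06 (difference 0.95, adjusted p = 0.15). Whether inhibitors differ from transducers was not tested.

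Wnt ligands stabilise beta-catenin and favour self-renewal. Of 46 genes 28 rose, with a median of 1.40 (17 rose and 2 fell when depth-scaled). Of the receptors 10 of 13 rose, of the inhibitors 6 of 8, of the ligands 5 of 12 and of the transducers 4 of 8. Gsk3b, the kinase that marks beta-catenin for destruction, had 5.85 and 6.37 in nascent and 8.57 and 8.56 at 2 h, a rise of 2.45. Dkk1, a secreted inhibitor, had 3.70 and 4.70 against 6.72 and 6.77, and Wls, which carries Wnt proteins to the surface, had 4.03 and 5.39 against 6.93 and 7.29. Porcn, the enzyme that lipidates them, had 5.55 and 5.31 against 7.58 and 7.58. Tcf7l1, the repressor that restrains the pluripotency network, rose by 1.93. Wnt10a was the 1 member with 2 h values (5.39 and 5.25) below both nascent values (5.65 and 6.16), at a difference of -0.58 that did not pass.

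Of 44 genes of the TGF-beta, Nodal and BMP pathways 31 rose, with a median of 1.53 (16 rose and 3 fell when depth-scaled). Bmp4, which works with LIF in self-renewal, had 5.33 and 6.41 in nascent and 8.28 and 8.07 at 2 h, a rise of 2.30 (SE 0.54). Nodal went from 6.43 and 7.10 to 8.84 and 8.79, Tgfbr1 from 4.37 and 5.74 to 7.24 and 7.23 and Id2, a BMP target, from 4.51 and 5.67 to 7.36 and 7.21. Of the receptors 9 of 11 rose and of the Smad transducers 5 of 6. The neighbouring genes Lefty1 and Lefty2, Nodal inhibitors, had differences of 1.28 and 0.22, of which the first passed (adjusted p = 0.048) and the other did not (adjusted p = 0.78). Lefty2 and Tgfb1, at 0.22 and 0.34, turned to -0.59 and -0.48 when libraries were centred.

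Markers of other lineages were measured in the same regions. Of primitive endoderm markers 5 of 11 rose and 1 fell, of trophectoderm markers 3 of 7 rose, of neural and germ layer markers 9 of 12 and of fibroblast markers 6 of 11. Of all genes 33.2% rose and 1.14% fell, and these short lists were not tested against that share. Depth-scaled, the primitive endoderm list had 3 higher and 2 lower, and the other lists had 1, 3 and 5 higher in that order and none lower. Gata6, an endoderm regulator, had 24 and 12 reads in nascent and 109 and 96 at 2 h and rose by 2.25 on the log2 scale. Vim, a filament of mesenchymal cells that embryonic stem cells also make, had 5.17 and 5.91 against 8.22 and 8.20. Hnf4a, a nuclear receptor of endoderm and liver, was the marker that fell, from 3.70 and 5.39 to 1.80 and 2.31, with a difference of -2.49 (SE 0.70, adjusted p = 0.0039). In bulk chromatin a region that is open in few cells and one that is little open in many cannot be told apart.

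Regulators of development were open as well. Of 138 genes of the homeobox, forkhead, T-box, Sox and Gata families 89 rose (44 rose and 13 fell when depth-scaled), and 64 had their first peak in the nascent list while 90 carried S5P. Of 31 Hox genes 20 rose, with a median of 1.44 (5 rose when depth-scaled, with a median of 0.29), and 8 had a peak in the nascent list. Hoxd11 went from 4.65 and 5.91 to 7.04 and 7.45, and Hoxb13 from 4.65 and 5.80 to 5.77 and 6.04, which did not pass. Cluster D had 7 of 9 genes higher and cluster B 3 of 7, and neighbouring Hox regions can overlap, as 3 of cluster D do.

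Genes for the replication machinery itself rose in 33 of 49 cases, with a median of 1.42 (15 rose and 3 fell when depth-scaled). A nascent peak was present at 43 of the 49, a class in which 56.2% of TSS regions were called higher. Rpa3, of the single-strand binding protein, had 4.21 and 5.23 in nascent and 7.32 and 7.22 at 2 h, a rise of 2.55. Orc4, of the origin recognition complex, went from 4.44 and 5.47 to 7.59 and 7.31, and Mcm3, of the replicative helicase, from 4.12 and 4.94 to 6.95 and 6.91. Pold4, a small subunit of polymerase delta, had 5.48 and 6.33 against 6.01 and 5.79 and did not change beyond its error (-0.01, SE 0.52). Of cyclin, CDK and E2F genes 25 of 38 rose (14 rose and 1 fell when depth-scaled), with E2f3 at 5.68 and 6.78 against 8.38 and 8.42.

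Transcription genes were nearer to the share of all genes. Of 89 genes of the machinery 35 rose (39.3%, against 33.2% of all genes), with a median of 1.16, and 14 rose and 12 fell when depth-scaled. Among them 3 of 13 RNA polymerase II subunits rose, 7 of 26 general factors, 10 of 20 pausing and elongation factors and 15 of 30 Mediator subunits. Of the 89 genes, 70 had their first peak in the nascent list, a class in which 56.2% of TSS regions were called higher. Med19, of Mediator, had 5.17 and 6.21 in nascent and 8.28 and 8.27 at 2 h, and Polr2e, a polymerase subunit, had 5.88 and 6.98 against 6.33 and 6.57. In Polr2e the 2 h values lie between the nascent ones, and its difference of 0.02 was -0.80 when centred and -0.53 without nascent replicate 1.

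Chromatin genes rose in 24 of 44 cases for remodellers, 14 of 28 for Polycomb and DNA methylation enzymes and 10 of 14 for cohesin and CTCF (depth-scaled 17 rose and 6 fell, 3 rose and 6 fell, and 6 rose). Arid1a, of SWI/SNF, had 5.77 and 6.25 in nascent and 8.13 and 8.07 at 2 h. Ezh2, the methyltransferase of Polycomb complex 2, had 5.21 and 6.07 against 7.45 and 7.76. Dnmt1, the maintenance methyltransferase that acts behind the fork, had 5.41 and 6.21 against 5.06 and 5.09 in a region with no peak in its central 1 kb, a difference of -0.73 (adjusted p = 0.29). As at Esrrb, whether this annotated start is the one in use was not tested.

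Cholesterol synthesis had the highest share among the metabolic lists. Of 22 tested enzymes 19 rose, with a median of 1.72, and 14 rose when depth-scaled. Hmgcs1, which makes HMG-CoA and whose CpG-rich promoter is printed above, went from 5.37 and 5.91 to 8.09 and 7.94, a rise of 2.37 (SE 0.53, adjusted p = 0.00033). Hsd17b7 had 5.03 and 5.14 in nascent and 7.79 and 7.29 at 2 h, and Msmo1, a sterol oxidase, had 5.17 and 6.11 against 8.09 and 8.03. Of the 22 regions 7 carried S5P and 21 had a nascent peak. Enhancers near these enzymes were few, and of 5 none passed (median 0.16). Glycolysis genes rose in 8 of 20 cases, with a median of 1.15 that became -0.0048 when depth-scaled, with 3 higher and 3 lower. Hk2 went from 5.83 and 6.87 to 8.52 and 8.49, whereas Hk1 had 3.70 and 5.14 against 2.58 and 3.69 and did not pass.

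Genes for protein synthesis and turnover rose in 36 of 78 cases for cytosolic and 29 of 73 for mitochondrial ribosomal proteins, 30 of 69 for translation factors and 18 of 39 for the proteasome. Splicing factor genes rose in 29 of 68 cases and respiratory chain genes in 39 of 76. These shares lay between 39.7% and 51.3%, against 33.2% of all genes and 56.2% of TSS regions with a nascent peak. Most members of each list had such a peak. None of these lists had a gene called lower as deposited. Depth-scaled calls, higher and lower, were 17 and 14 for cytosolic and 12 and 11 for mitochondrial ribosomal genes, 13 and 10 for translation, 15 and 6 for splicing, 7 and 5 for proteasome and 9 and 15 for respiratory chain genes. Hsp90b1, the chaperone of the endoplasmic reticulum, had 4.51 and 5.39 in nascent and 7.78 and 7.65 at 2 h and rose by 2.76. Eif3i, at 5.77 and 6.33 against 6.12 and 6.10, was flat at 0.05 and turned to -0.76 when centred.

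Replication-dependent histone genes, which are transcribed in S phase, started low and ended high. In their 60 tested regions the medians were 4.12 and 4.94 in nascent and 8.03 and 8.11 at 2 h, and 59 were called higher, with a median difference of 3.57 (2.43 when depth-scaled, with 58 called). At H3c3 the counts were 7 and 11 reads against 333 and 314, or 3.11 and 4.70 against 8.70 and 8.70, a difference of 4.79 (SE 0.52, adjusted p = 2.7e-16). H2ac8 had 13 and 3 reads against 271 and 249, and H1f3, a linker histone, had 21 and 12 against 479 and 425. H2ac24 had 1 read in each nascent library and 75 and 71 at 2 h. In all 4 both 2 h libraries lie above both nascent libraries. The DMSO libraries gave a smaller median of 2.26 on their own scale. Histone genes are near-identical copies and 58 regions overlap another member, so reads and names may be shared between neighbours. H2bc1, of the testis-specific pair with H2ac1, was the 1 gene that did not pass (1.37, adjusted p = 0.0504).

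Small nuclear and nucleolar RNA genes rose in 72 of 151 cases and none fell (61 rose and 46 fell when depth-scaled). Rmrp, the RNA of RNase MRP, went from 4.44 and 4.82 to 7.95 and 7.82. Rnu3a, a U3 copy, went from 5.17 and 6.21 to 9.17 and 9.15, and Rnu2-10, a U2 copy, from 5.33 and 6.37 to 9.17 and 9.23. These genes too have many copies, so each name stands for reads that could belong to another.

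MicroRNA genes as a class stayed near 0, with 98 of 677 higher (14.5%), 16 lower (2.36%) and a median of 0.05, which became -0.77 when centred (91 higher, 262 lower), with 52 higher and 328 lower when depth-scaled. The microRNAs that embryonic stem cells are known for were chosen for that role after values of Mir293 and Mir367 had been seen. Mature forms with the shared seed AAGUGCU (bases 2 to 8, in capitals, RefSeq GRCm38.p6) come from both of their clusters:
miR-291a-3p (chr7:3218968-3218989): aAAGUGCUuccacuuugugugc
miR-294-3p (chr7:3220691-3220712): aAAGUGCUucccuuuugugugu
miR-295-3p (chr7:3220815-3220837): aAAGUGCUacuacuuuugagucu
miR-302b-3p (chr3:127545275-127545297): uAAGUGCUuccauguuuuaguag
miR-302d-3p (chr3:127545665-127545687): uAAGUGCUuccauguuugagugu
A second seed, AUUGCAC, is shared by miR-367 and by miR-92a of the cluster of miR-17:
miR-367-3p (chr3:127545779-127545800): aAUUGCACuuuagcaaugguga
miR-92a-3p (chr14:115044476-115044496): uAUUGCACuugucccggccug
The Mir294 region of the first cluster had 76 and 73 reads in nascent and 598 and 554 at 2 h, or 6.39 and 7.39 against 9.54 and 9.52, a rise of 2.64 (SE 0.62, adjusted p = 0.00063). In the second cluster Mir302d had 13 and 15 reads against 112 and 109, or 3.93 and 5.14 against 7.13 and 7.18, and rose by 2.63 (SE 0.52, adjusted p = 5.4e-05). The first cluster had a nascent peak and S5P, and the second had its first peak in the 30 min list and no S5P. Mir92-1 had 5.21 and 6.02 against 6.63 and 6.79, and the 6 regions of its cluster had differences of 1.06 to 1.19 and did not pass. Regions of a cluster overlap and share reads, so each cluster is 1 observation.

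Few members of large families that act in sensory or epithelial tissue were called. Of 1026 olfactory receptor genes 18 were higher and 14 lower, with medians of 2.42 and 2.97 in nascent and 2.85 and 2.31 at 2 h. Of 249 vomeronasal receptor genes 8 were higher and 3 lower, of 48 defensin genes 1 and 2, and of 48 keratin genes none and 1. Median differences were -0.17, -0.04, -0.01 and -0.35 as deposited, between -0.82 and -1.16 when centred (olfactory receptors 8 higher and 228 lower), and between 0.05 and 0.34 when libraries were scaled to peak-free regions. Of the enhancers placed within 50 kb of such genes, 20 of 27 near olfactory and 12 of 13 near vomeronasal receptor genes rose, against 60.3% of all enhancers. Their medians were 3.44 and 4.08 against 6.01 and 6.01, and 3.58 and 4.57 against 6.58 and 6.35. Near defensin and keratin genes 1 of 4 and 1 of 2 rose. A difference between these and other enhancers was not tested. Olfr926, one of the few receptor genes called higher, had 3.70 and 3.63 against 6.54 and 6.40 with no peak in its central 1 kb.

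Numbered zinc finger genes, many of which repress transposons, rose in 191 of 322 cases with none lower (100 rose and 27 fell when depth-scaled). Zfp280c had 3.28 and 4.43 in nascent and 6.98 and 6.84 at 2 h, and Zfp120 had 3.82 and 4.70 against 7.42 and 7.18. Of imprinted genes 8 of 18 rose (3 rose and 2 fell when depth-scaled), among them Snrpn (4.82 and 5.67 against 7.48 and 7.41) and Peg3 (5.21 and 6.21 against 7.83 and 7.78). Clustered protocadherin genes, which neurons choose among, rose in 9 of 24 cases, near the share of all genes (3 when centred and 1 when depth-scaled), and none of the 24 had a nascent peak or S5P. Pcdhb8 had 2.69 and 3.87 against 5.73 and 5.68.

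Outside these lists the largest rises belonged to Itgb8 and a few uncertain names. Itgb8, an integrin subunit that activates TGF-beta, had 10 and 2 reads in nascent and 144 and 138 at 2 h, or 3.58 and 2.47 against 7.49 and 7.52, a difference of 4.48 (SE 0.54). Its first peak came in the 30 min list, it had no S5P, and an annotated enhancer 0.67 kb from its start (4.47) shares the same reads. The pseudogene Hmgb1l had 6 and 4 reads against 153 and 111, and the small nuclear RNA gene Gm22634 had 4 and 3 against 87 and 88. At 2610042L04Rik, of a multicopy family, there was no read in either nascent library and 13 and 8 at 2 h. That region passed the filter only through the 2 h libraries, so its call is no support for a rise. Its DMSO difference was 0.46 (limma adjusted p = 0.35). Among solute carriers 121 of 324 were higher and 4 lower, and Slc6a15, an amino acid transporter, rose from 4.29 and 5.54 to 8.02 and 7.99. That list's median of 1.04 became -0.09 when depth-scaled (44 higher, 73 lower), and that of potassium channels went from 1.11 (29 higher of 85) to -0.04 (15 higher, 19 lower).

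Of the 8 enhancers with the largest rises, all but that at Itgb8 lay 126 kb or more from a coding gene. One 189 kb from Inhba (chr13:15820095-15825094) had 13 and 1 reads in nascent and 141 and 113 at 2 h, or 3.93 and 1.71 against 7.46 and 7.23, a difference of 4.53 (SE 0.52). One 489 kb from Cep78 (chr19:15493099-15498098) had 5 and 1 reads against 88 and 69, and one 371 kb from Grik2 (chr10:49414989-49419988) had 5 and 10 against 169 and 173. None of the 8 largest rises carried S5P, 1 had a peak in the nascent list, 3 first in the 30 min list and 4 first in the 1 h list. Of all 8794 enhancers only 457 had S5P together with a steady-state peak, so its absence from 8 does not set them apart. A first peak was in the nascent list for 1845 of all enhancers, in the 30 min list for 2651 and in the 1 h list for 1314. The DMSO libraries were also higher at 2 h in all 3 named here, by 2.31, 2.91 and 2.04 on their own scale.

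Regions that fell were few and shallow. Of the 414 TSS regions called lower 369 held no peak of any list anywhere in the 5 kb, and 0.59% of such peak-free regions were higher and 3.67% lower. Slc6a18, a transporter of kidney, had 10 and 13 reads in nascent and 2 and 0 at 2 h, or 3.58 and 4.94 against 1.80 and 0, a difference of -3.35 (SE 0.77, adjusted p = 0.00048). Bpifa3, whose CpG-free promoter is printed above, had 7 and 9 reads against 2 and 0, and Krtap5-2, a hair keratin-associated gene, had 10 and 8 against 3 and 0. In the DMSO libraries Slc6a18, Bpifa3 and Krtap5-2 differed by -0.65, -0.57 and -0.55, and none was called (limma adjusted p = 0.19, 0.25 and 0.28). Slc23a3 had 4.93 and 5.39 against 3.28 and 1.86 and fell by 2.59 on the log2 scale. The mean value of peak-free TSS regions was 7.03 and 12.9 in nascent chromatin against 7.62 and 6.62 after 2 h, so that nascent replicate 2 stands apart. Scaled to these regions 544 TSS regions were lower, and without nascent replicate 2 there were 325. Of the 410 TSS regions called lower here and tested in the DMSO libraries 36.3% were lower there as well, and none was higher. Of the 31 enhancers called lower, one 27.5 kb from Virma had the highest counts among the 4 named, with 19 and 14 reads against 3 and 7, and none of the 4 had a peak in its central 1 kb.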

How the data were processed

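Chromatin accessibility of EdU-labelled DNA was measured in 2 nascent and 2 chased (2 h) libraries. The submitters' processing notes name the build mm10, the trimmer Trim Galore 0.4.2 and the aligner Bowtie2, version 2.2.6.2. The authors deposited log2 values, log2(value + 1), for 5 kb regions at TSSs and enhancers. Neither their scaling nor the use made of S2 reads is stated in the labels or headers. Undoing the log2 gave whole reads (100% of values within 0.1 read), and 1 read stands for 1.09 to 2.28. Depth was 463741 to 1468143 reads in TSS regions, with no molecular identifiers. The deposited DMSO table, log2(RPM + 1) in 1 kb windows per the file headers, was summed over 5 windows a region, and 24 of its columns were not used. The deposited peak lists hold positions only (47341 nascent to 166636 steady-state peaks, 9632 S5P), and replicates had been combined by the authors.

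Of 32004 TSS regions, 31995 of full length and 8794 enhancers were kept, and those above 0 in at least 2 of 4 libraries were tested in limma (version 3.58.1, moderated variance with an intensity trend, R 4.3.3), with Benjamini-Hochberg adjustment over all regions of a table and a threshold of 0.05. The median SE of a difference was 0.55 at TSSs and 0.52 at enhancers. TSSs were named from RefSeq genes within 1000 bp on the same strand (26277 regions, 25896 symbols), and the region with the highest mean stands for a gene. For library means, exact permutation tests, two-sided, were used. Genes named are the 15 largest rises and 8 largest falls without overlap of the groups, the 8 and 4 such enhancers, the 5 highest regions, up to 4 highest and 3 lowest differences of each list, and every member of the pluripotency, LIF, FGF, Wnt and TGF-beta lists. Tables were scaled separately, so nothing was tested across them.

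On simulated data with 200 changed regions of 4-fold, limma recovered 99 at TSSs (30581 regions) and 143 at enhancers (8788 regions), and of 2-fold changes 0 and 1. The simulation used an assumed dispersion and no level difference between nascent replicates, so its recovery need not hold for the real libraries. Files were read in R by data.table (1.17.8), figures were drawn by matplotlib 3.10.9, and the rest ran in Python 3.11.15 on pandas 2.3.3, numpy 2.4.6 and scipy 1.17.1. The regions, lists and tests were chosen with earlier results of these data known. Alternatives were the pseudocount, filter, scaling, block, overlap, trend and leaving out each library. limma-voom on recovered reads was added after seeing the data. The planned edgeR and DESeq2 alternatives were not run.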

Additional observations from a re-analysis of the deposited data

Results flagged for a closer look

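Srsf9, a splicing factor, and Defb15, a defensin gene, were picked out because every library of 1 experiment moved one way and every library of the other the opposite way. In the spike-in experiment the Srsf9 region had 5.77 and 5.97 at the nascent stage against 5.98 and 6.01 after 2 h (difference 0.13, adjusted p = 0.88 in limma), while its DMSO difference was -0.65. Defb15 had 4.29 and 4.08 against 2.58 and 2.31 (difference -1.74, limma adjusted p = 0.043), and its DMSO difference was 0.58. The difference between the experiments was not tested in either gene. Srsf9 turned to -0.69 when the spike-in libraries were centred.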

How the results depend on the processing

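The 5 comparisons of library means kept their direction with a pseudocount of 8, with medians, with non-overlapping regions and without any 1 library. Mean levels were not recomputed under rescaling, where the median TSS difference of 0.79 turned to -0.02 (centred) and -0.30 (depth-scaled). TSS regions called higher (9223) were 35 with no filter, 4763 depth-scaled to reads in TSS regions, 18006 scaled to peak-free regions, 4796 with limma-voom on recovered reads scaled to reads in TSS regions (11359 at the deposited scaling), and 2 to 17719 leaving out a library. TSS regions called lower (414) were 10 with no filter, 240 with at least 10 reads, 6151 centred, 8524 depth-scaled, 809 without a trend, 10363 with that depth-scaled voom fit (471 at the deposited scaling) and 0 to 2803 leaving out a library. Enhancers called higher (5296) were 2883 depth-scaled, 2876 with depth-scaled voom (5736 at the deposited scaling) and 0 to 7307 leaving out a library. Enhancers called lower (31) were 20 with at least 10 reads, 669 centred, 1064 depth-scaled, 55 without a trend, 1372 with depth-scaled voom (33 at the deposited scaling) and 0 to 390 leaving out a library. The cause was not tested. With a replicate block limma called 670 TSS regions and 3695 enhancers higher, and 11 and 9 lower, and 75 of the 282 called regions named by rule stayed called. Same-numbered libraries did not deviate together from region to region (correlation -0.0016 over TSS regions). Such a correlation does not see a level shared by whole libraries, so whether the numbers pair them was not settled. The planned edgeR (both settings) and DESeq2 alternatives were not run.

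Of the genes named, the values given here reversed, none of them called as deposited. A value counts as reversed only where it was called with the opposite sign in that fit. When centred, the values were -0.77 (an unnamed TSS region on chromosome 11), -0.48 (Tgfb1), -0.59 (Lefty2), -0.64 (Nelfcd), -0.66 (Mnat1), -0.80 (Polr2e), -0.46 (Chd4), -0.81 (Mta1), -0.64 (Phf19), -0.47 (Eno2), -0.68 (Slc22a18), -0.71 (Mrpl58), -0.68 (Ndufc2), -0.73 (Uqcr11), -0.76 (Eif3i), -0.62 (Farsa), -0.69 (Srsf9) and -0.68 (Cdkn1a). Without nascent replicate 1 they were -0.38 (the unnamed region), -0.53 (Polr2e) and -0.64 (Uqcr11), against 0.47, 0.57 and 0.80 without nascent replicate 2. Eif3g had -0.60 and 0.53 in these fits. Other values fell below 0 without nascent replicate 1 and were not counted as reversed. They include Cdkn1a (-0.43), Mnat1 (-0.42), Farsa (-0.40), Ndufc2 (-0.40), Mta1 (-0.34) and Nelfcd (-0.26). Chd4 (0.09), Eno2 (0.06) and Srsf9 (0.03) stayed above 0 in that fit. In data simulated for 2 against 2 libraries, 4-fold changes of TSS regions were recovered in 99 of 200 cases. Unchanged regions had the same mean value in all 4 simulated libraries. The lower read numbers of the nascent libraries and the level difference between them were thus left out. That rate therefore need not hold for the real libraries.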
